A study of Mus musculus with 4 samples.

Results

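The apoptosis and necroptosis regulators described here are 39 genes of the BCL2 family, the caspases and their apoptosome, the inhibitors of both, the death receptor pathway and the necroptosis pathway, with p53 and its ligase. They were taken by gene symbol from the 23420 genes in the count files, and all 39 had a row. The study sequenced polyadenylated RNA from unmanipulated hearts of mice of C57BL/6J, a widely used inbred strain, in 4 libraries of a single group that carry the labels wild type, male and 12 weeks of age. The labels call the tissue whole heart, while the labels' protocols name the ventricular apex as the piece frozen for RNA. There is no treated or mutant group, so levels are compared between genes within a library and between the libraries, which are numbered as in the submitters' titles.

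Apoptosis from within the cell is decided at the outer membrane of the mitochondria. BAX and BAK form pores there, BCL2, BCL-XL, BCL-W and MCL1 hold them back, and the BH3-only proteins release or activate them. Proteins that leak from the mitochondria then start caspases through APAF1. Death receptors such as FAS and the TNF receptor instead start caspase-8, and where caspase-8 is held inactive, RIPK1 and RIPK3 can switch the cell to necroptosis through MLKL. Heart muscle cells divide little after birth and are hardly replaced, and both pathways are known from infarction and heart failure.

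Libraries 1 to 4 held 14412049, 13919367, 10523709 and 15359296 gene counts, and a count of 0 would allow a level of up to 0.195 to 0.285 CPM (counts per 1e6 gene counts), taking 3 counts as the limit. Cardiomyocyte markers summed to 89011 to 100090 CPM, and endothelial markers to 1065 to 1083 CPM. The 7 macrophage markers summed to 207 to 236 CPM, the 6 lymphocyte markers to 2.54 to 3.81 CPM. Libraries 2 and 3 go against their label. Xist, the RNA of the inactive X chromosome in female cells, had 5, 1897, 1806 and 19 counts in libraries 1 to 4, and the Y-linked gene Ddx3y had 341, 0, 1 and 437 counts. Values are therefore given per library, and those that turn on libraries 2 or 3 also without both. Whether each library stands for a separate animal is not spelled out in the labels, so the spread tested here may be partly technical.

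Together the 39 genes took a small part of the RNA. Their summed level was 929, 898, 847 and 959 CPM in libraries 1 to 4, or 908 ± 47.6 CPM (SD, n = 4), which is 0.0908% of gene counts. Without libraries 2 and 3 the sum was 944 CPM. The 5 members with the highest CPM, Bcl2l13, Mcl1, Bcl2l1, Aifm1 and Bcl2l2, made up 42.9% of it. A mean of at least 50 CPM was reached by 7 members, 14 lay between 10 and 50 CPM, 15 between 1 and 10 CPM, and 3 below 1 CPM. All 39 had at least 1 count in each library, and 36 passed the filter of 1 CPM for the test of spread.

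**Figure D1:**
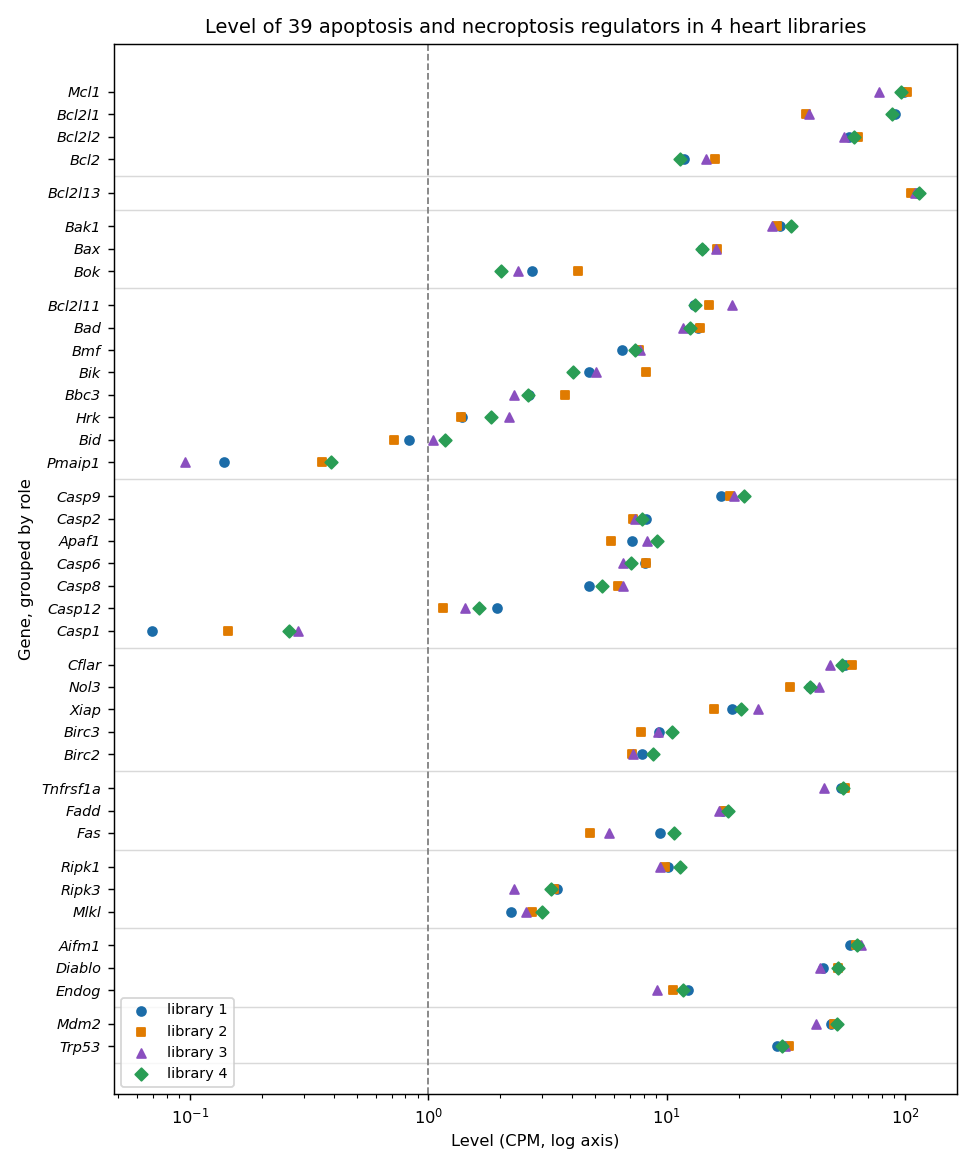
Level of each of the 39 members in CPM (log axis) in libraries 1 to 4 (blue circle, orange square, purple triangle, green diamond), grouped by role, with a dashed line at 1 CPM. The libraries lie close together for most members, while the points of Bcl2l1 and Fas split into libraries 1 and 4 above and 2 and 3 below, and only Bid, Pmaip1 and Casp1 have means below the line.

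Since longer transcripts yield more reads, levels of different genes are compared per kilobase of exon in GENCODE M21. By that measure 18 of the 39 members lay above the middle of the 12287 genes that passed 1 CPM and had a length, whose median was 3.62 CPM per kilobase. Mcl1 led with 27.4 ± 3.22 CPM per kilobase (SD, n = 4), followed by Tnfrsf1a with 20.2 ± 1.77 CPM per kilobase. By exon length both kept their places in all 4 libraries. With the length of the longest transcript Mcl1 still had the highest mean, but the mean of Bcl2l1 lay above that of Tnfrsf1a. The place of Tnfrsf1a, and that of Mcl1 in libraries 1 and 4, thus depends on the length used. By exon length, a run of genes that could not be ordered came next. Aifm1, Bcl2l1, Bcl2l2, Bak1, Nol3 and Bcl2l13 had means from 15.5 to 12.2 CPM per kilobase, and each neighbouring pair among them changed places in at least 1 library. Over the whole order, 10 of 38 neighbouring pairs kept their order in all 4 libraries.

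**Figure D2:**
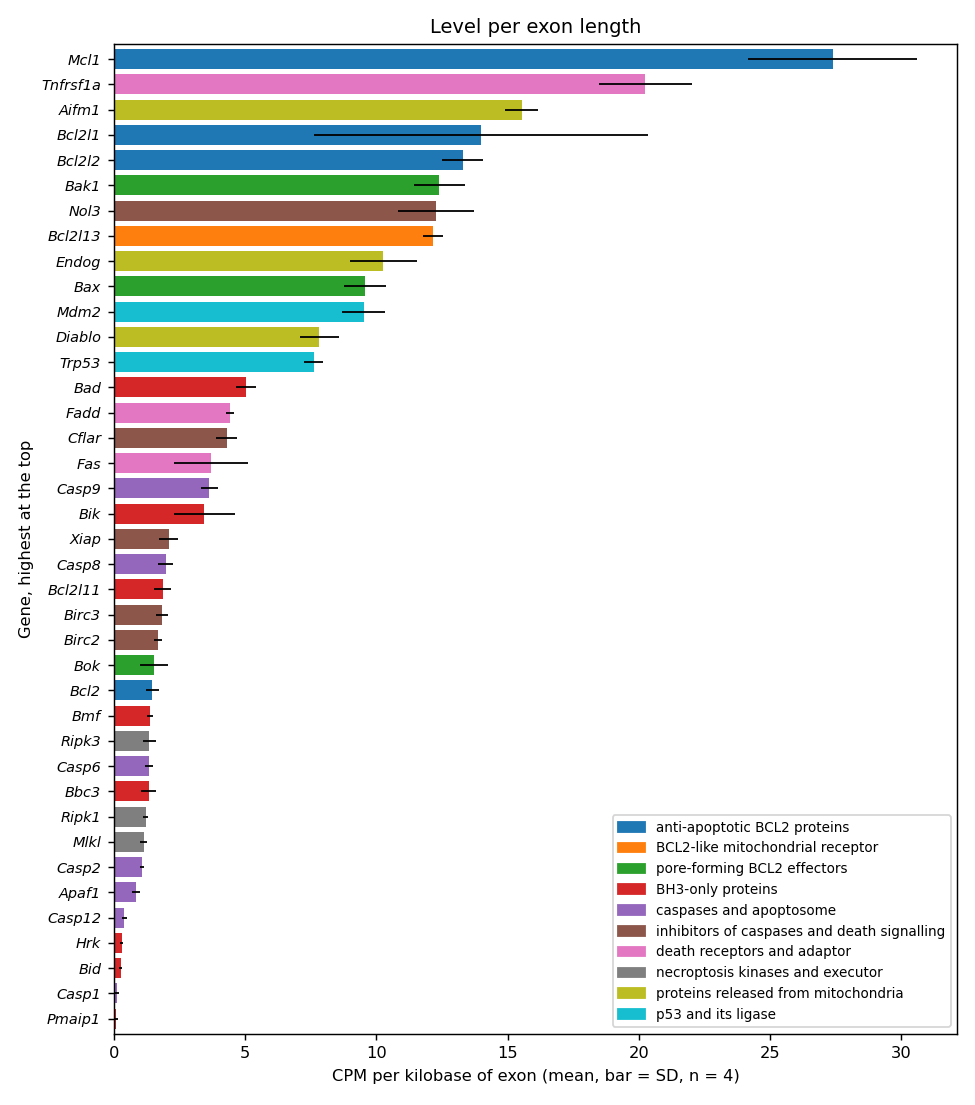
Mean level per kilobase of exon for the 39 members (bars, coloured by role, error bars are the SD over 4 libraries). Mcl1 stands at the top with 27.4 CPM per kilobase, and Bcl2l1 has by far the widest error bar of the upper genes. Most caspases and BH3-only genes and the necroptosis genes lie in the lower part, with Xiap, Birc2, Birc3, Bok and Bcl2. Bad, Casp9 and Bik lie above these.

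The anti-apoptotic BCL2 genes were the most abundant role of the BCL2 family. Mcl1 encodes a short-lived guardian of mitochondria that heart muscle needs. It lies on chromosome 3 at 95658788 to 95663176 (GRCm38) and had 98.7, 101.9, 77.4 and 96.3 CPM in libraries 1 to 4, lowest in library 3. Bcl2l2, which encodes BCL-W, had 58.3, 63.3, 55.1 and 60.6 CPM. The coefficients of variation were 11.8% for Mcl1 and 5.86% for Bcl2l2. For Mcl1 the Poisson limits of library 3, 72.2 to 82.9 CPM, lay below those of the other 3 libraries, but it was not called (variance ratio 3.21, adjusted p = 0.914, edgeR). Bcl2, the founder of the family, was the lowest of the 4 genes at 11.8, 15.9, 14.6 and 11.4 CPM. Per kilobase, Bcl2l2 exceeded it 9.13-fold, a log2 ratio of 3.19 ± 0.24 (SD, n = 4), higher in 4 of 4 libraries.

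Bcl2l1 was the member that set the libraries apart. It encodes BCL-XL, which binds and restrains BAX and BAK, and lies on chromosome 2 at 152780668 to 152831728 on the minus strand. Its counts in libraries 1 to 4 were 1309, 535, 414 and 1353, which is 90.8, 38.4, 39.3 and 88.1 CPM. Libraries 1 and 4 were high and close to each other, libraries 2 and 3 low and close to each other, with nothing between them. Exact Poisson limits of 95%, which cover counting error only, ran from 83.5 to 92.9 CPM in library 4 and from 35.6 to 43.3 CPM in library 3. The highest library stood 2.36 times above the lowest. In edgeR's quasi-likelihood fit its variance was 46.9 times that of genes of like abundance (adjusted p = 0.0154, Benjamini-Hochberg over 12358 genes). It was the 1 member called among 36 tested, while 0.445% of all tested genes were called. With a prior that was not estimated robustly it was not called (adjusted p = 0.106, edgeR). The mean was 64.2 ± 29.2 CPM over 4 libraries and 89.5 CPM without libraries 2 and 3. Within libraries 1 and 4 alone the variance ratio was 0.516 and the gene was not called (adjusted p = 0.984, edgeR).

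That spread moved the makeup of the anti-apoptotic genes. Bcl2l1 made up 35.0, 17.5, 21.1 and 34.4% of the CPM of the 4 anti-apoptotic genes in libraries 1 to 4. Among the 39 members it ranked 3rd per kilobase in libraries 1 and 4, but 12th in library 2 and 10th in library 3. Against Bax its log2 ratio per kilobase was 1.15 in library 1 and 1.11 in library 4, and -0.30 and -0.25 in libraries 2 and 3. Per kilobase of exon, Bcl2l1 thus exceeded Bax in 2 of 4 libraries (mean log2 ratio 0.43 ± 0.81, SD, n = 4, two-sided exact sign-flip permutation p = 0.5). With the length of the longest transcript the mean log2 ratio was 0.75, and without length 1.97. The order of the pair in libraries 2 and 3 thus depends on the length used.

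Immediate early genes, which cells switch on quickly after a stimulus, were as a sum also lower in libraries 2 and 3. The 9 genes of that list, all of which passed 1 CPM, summed to 476, 204, 266 and 457 CPM in libraries 1 to 4. Of these 5 were called by edgeR's quasi-likelihood fit, against 0.445% of all tested genes. Jun, which was called, had 86.5, 41.0, 40.8 and 80.5 CPM. Fos, Zfp36, Dusp1, Btg2 and Atf3 were also higher in libraries 1 and 4 than in libraries 2 and 3. Egr1, with 60.9, 33.8, 56.3 and 60.9 CPM, was low mainly in library 2. Fosb had 3.05, 0.287, 2.09 and 2.08 CPM and Junb 21.9, 13.6, 8.36 and 13.6 CPM, and neither split clearly. Egr1, Fosb and Junb were not called. The part of immediate early genes in the spread of Bcl2l1 was not tested. Neither was that of the sex-linked transcripts, which split the libraries into the same pairs. The Y-linked genes were high where Bcl2l1 was high, and Xist was high where Bcl2l1 was low. Sums of the fibroblast, macrophage, and smooth muscle and pericyte markers were also lower in libraries 2 and 3. The 6 fibroblast markers summed to 664, 628, 616 and 663 CPM in libraries 1 to 4, but in library 2 that was Dcn alone (254, 179.9, 246 and 270.0 CPM), and the other 5 were higher there than in libraries 1 and 4. The 7 macrophage markers summed to 235, 222, 207 and 236 CPM. Among them Adgre1 was highest in library 3 (7.22, 6.39, 9.41 and 7.16 CPM) and Fcgr1 in library 2 (1.39, 3.23, 0.475 and 1.63 CPM). C1qa did not split, and the rest were lower in libraries 2 and 3, Mrc1 and Cd68 barely. The 6 smooth muscle and pericyte markers summed to 758, 680.2, 753 and 789.6 CPM. Of these Myh11 split more widely, with 117, 88.4, 82.5 and 117 CPM, and Tagln had 37.8, 28.1, 29.4 and 39.7 CPM and Cnn1 3.12, 1.94, 2.09 and 3.06 CPM. Acta2 did not, with 217, 224, 247 and 226 CPM, and neither did Pdgfrb, with 185.7, 187.7, 182.1 and 194.7 CPM. Rgs5, with 196.7, 150.4, 209.2 and 208.7 CPM, was low in library 2 alone. None of these markers was called by edgeR. The endothelial markers summed to 1065, 1083, 1082 and 1082 CPM. No marker of any list was at 0 in all libraries, and the part of cell makeup was not tested. In tissue RNA such as this, fewer cells of a type and less RNA per cell cannot be told apart.

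**Figure D3:**
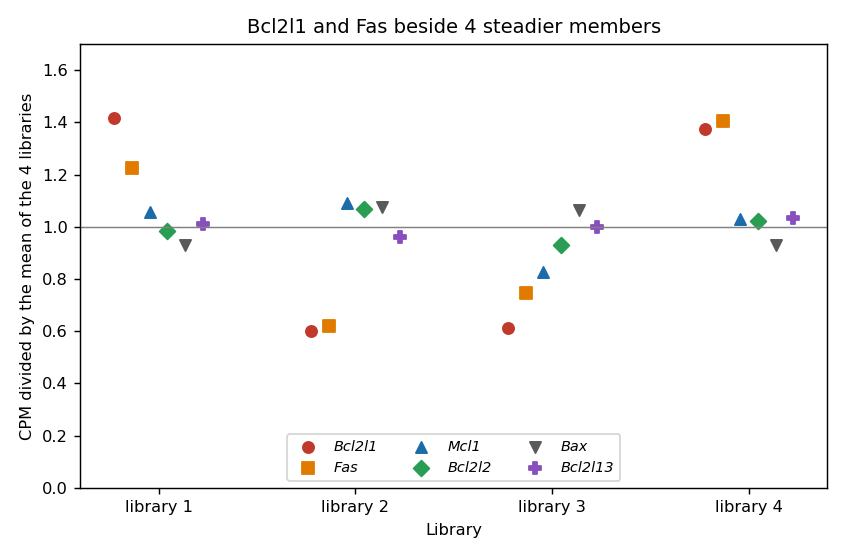
CPM of Bcl2l1, Fas, Mcl1, Bcl2l2, Bax and Bcl2l13 in each library, divided by that gene's mean over the 4 libraries (points, linear axis from 0). Bcl2l1 and Fas lie above 1 in libraries 1 and 4 and below it in libraries 2 and 3, while the other 4 genes stay near 1.

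Fas followed the same pattern at a lower level. It encodes a death receptor that recruits FADD and caspase-8, and lies on chromosome 19 at 34290666 to 34327772. Its counts were 135, 66, 60 and 165, which is 9.37, 4.74, 5.70 and 10.7 CPM. Libraries 1 and 4 were again above libraries 2 and 3. Fas did not pass the threshold over all genes (variance ratio 8.10, adjusted p = 0.433, edgeR), and its mean of 7.64 ± 2.87 CPM was 10.1 CPM without libraries 2 and 3.

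Windows of 300 bases from RefSeq (GRCm38.p6), 250 before and 50 after a gene's start, are shown for Bcl2l1 and Fas because they were high and low in the same libraries, and for Mcl1 as the highest member per kilobase, which did not share that pattern. They are given 5′ to 3′ on the strand of the gene, with matches to the 7 motifs searched, on either strand, in capitals. The Bcl2l1 window lies at chr2:152828440-152828739 (minus strand), the Fas window at chr19:34290409-34290708 and the Mcl1 window at chr3:95658471-95658770.
Bcl2l1: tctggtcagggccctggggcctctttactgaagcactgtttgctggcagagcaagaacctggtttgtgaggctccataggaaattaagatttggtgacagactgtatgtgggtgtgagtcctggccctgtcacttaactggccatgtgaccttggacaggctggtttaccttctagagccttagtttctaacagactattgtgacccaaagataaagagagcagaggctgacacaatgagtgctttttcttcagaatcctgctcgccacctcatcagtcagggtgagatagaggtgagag
Fas: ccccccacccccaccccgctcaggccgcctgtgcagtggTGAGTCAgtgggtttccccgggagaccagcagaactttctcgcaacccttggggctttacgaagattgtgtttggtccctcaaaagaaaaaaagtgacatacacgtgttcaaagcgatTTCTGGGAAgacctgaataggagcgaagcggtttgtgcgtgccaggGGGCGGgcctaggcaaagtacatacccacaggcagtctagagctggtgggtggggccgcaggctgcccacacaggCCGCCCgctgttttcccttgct
Mcl1: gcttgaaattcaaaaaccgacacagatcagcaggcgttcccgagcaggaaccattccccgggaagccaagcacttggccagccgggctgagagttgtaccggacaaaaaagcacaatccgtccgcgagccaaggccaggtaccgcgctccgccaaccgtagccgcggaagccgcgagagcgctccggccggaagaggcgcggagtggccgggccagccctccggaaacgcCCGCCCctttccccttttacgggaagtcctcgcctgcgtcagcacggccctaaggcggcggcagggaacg
The Bcl2l1 window held none of the motifs and 1 CpG, and it was 49.3% G and C. The gene as annotated in GENCODE M21 reaches 2989 bases further upstream, so transcripts with other starts are annotated. The Fas window held 14 CpGs and the Mcl1 window 33, against a median of 7 over 27025 RefSeq windows of the same length.

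The motifs were TATAAA (the TATA box, in 14.2% of all windows), GGGCGG (the GC box, 35.9%), CCAAT (37.9%), AGAACA (the hexamer of steroid receptors, 19.0%), TGANTCA (the AP-1 site, 7.93%), TTCNNNGAA (the STAT site, 8.47%) and the p53 decamer (8.37%). Matches of different motifs could overlap, though none did in these 3 windows. Fas held GGGCGG at 2 places, TGANTCA and TTCNNNGAA, and Mcl1 held GGGCGG. Of the 36 members with a window, 23 held GGGCGG, 9 CCAAT, 3 AGAACA, 3 TTCNNNGAA, 2 TATAAA, 1 TGANTCA, and 4 the p53 decamer (Bmf, Bax, Mdm2 and Trp53). A match describes letters and shows no binding.

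Bcl2l13, Bax and Bak1 were steady between libraries. Bcl2l13, an outer mitochondrial membrane protein known as a receptor for the removal of mitochondria, had 111.5, 106, 110.2 and 114 CPM in libraries 1 to 4, the highest CPM of all members. Its coefficient of variation was 3.10%, so the libraries were nearly level. Of the pore formers, Bax had 14, 16.2, 16.1 and 14 CPM, and Bak1 had 29.8, 29.0, 27.6 and 33.0 CPM. Per kilobase Bax had 0.772 times the level of Bak1 and was lower in 4 of 4 libraries (log2 ratio -0.37 ± 0.21, SD, n = 4), but the sign turned with the length of the longest transcript (0.13), so these data do not order the pair. Of the exon bases of Bak1, 25.5% are shared with Ggnbp1, which adds to the uncertainty. Bok, a pore former that acts outside the usual control by BCL2 proteins, was lower, with 2.71, 4.24, 2.38 and 2.02 CPM. Library 2 was the highest, and Bok was not called (adjusted p = 0.943, edgeR). Its mean of 2.83 CPM was 2.36 CPM without libraries 2 and 3. Bax exceeded it 6.37-fold per kilobase.

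Summed per kilobase, the 4 anti-apoptotic genes had 2.77, 2.19, 1.97 and 2.63 times the level of the 3 pore formers in libraries 1 to 4. The pore formers' own sum was 23.5 ± 0.869 CPM per kilobase (SD, n = 4) and that of the anti-apoptotic genes 56.1 ± 8.34. The ratio was highest in libraries 1 and 4, where Bcl2l1 was high.

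The BH3-only genes were few in transcripts. All 8 together came to 42.7, 50.8, 48.7 and 43.0 CPM in libraries 1 to 4. Bcl2l11, which encodes BIM, had 13.0, 15.0, 18.7 and 13.2 CPM, highest in library 3. Bad, which growth factor kinases hold inactive, had 13.5, 13.8, 11.7 and 12.5 CPM and was nearly level, though 20.5% of its exon bases are shared with Gpr137. Bmf had a mean of 7.28 CPM and Bbc3, the p53 target PUMA, one of 2.81 CPM. Hrk, known from neurons, had a mean of 1.69 CPM. Bik had 4.72, 8.19, 5.04 and 4.04 CPM, and library 2 stood above the others, with Poisson limits of 6.76 to 9.84 CPM against 3.77 to 6.59 CPM in the next highest. It was not called (adjusted p = 0.777, edgeR), and its mean of 5.50 CPM was 4.38 CPM without libraries 2 and 3.

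Members with a mean under 1 CPM were too shallow to compare between libraries. Bid, which caspase-8 cuts to link death receptors to mitochondria, had 12, 10, 11 and 18 counts. Its last exon overlaps that of Bcl2l13 on the other strand, and 17.7% of its exon bases are shared with that gene. The libraries do not keep strand, so reads there cannot be assigned to either. Pmaip1, the p53 target NOXA, had 2, 5, 1 and 6 counts, and Casp1, the inflammasome caspase, had 1, 2, 3 and 4 counts. The widest Poisson limits for Casp1 were 0.0588 to 0.833 CPM in library 3, so no difference between libraries was detectable at this depth.

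Casp9, the caspase that APAF1 activates, was the highest of the 6 caspases among the members and lay near the middle of all genes, at 3.64 CPM per kilobase. It had 16.9, 18.5, 19.2 and 21.03 CPM in libraries 1 to 4. Apaf1 itself had 7.15, 5.82, 8.27 and 9.12 CPM and was lowest in library 2. Per kilobase Casp9 exceeded Apaf1 4.36-fold, higher in 4 of 4 libraries. Casp2 had a mean of 7.64 ± 0.472 CPM, Casp6, an executioner caspase, one of 7.49 ± 0.798 CPM, and Casp8 one of 5.72 ± 0.843 CPM (SD, n = 4 each). Casp12, a caspase of the endoplasmic reticulum in mouse, had 28, 16, 15 and 25 counts, 1.94 to 1.15 CPM, with overlapping Poisson limits in all 4 libraries.

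Summed per kilobase, the 5 inhibitors of caspases and death signalling had 22.2 ± 1.64 and the 7 genes of the caspases and apoptosome 9.40 ± 0.459 CPM per kilobase (SD, n = 4 each). Cflar, a relative of caspase-8 without its catalytic activity, had 55.6, 60.0, 48.1 and 54.0 CPM in libraries 1 to 4, and Casp8, its neighbour 36.5 kilobases away on chromosome 1, had 4.72, 6.25, 6.56 and 5.34 CPM. Per kilobase Casp8 had 0.460 times the level of Cflar and was lower in 4 of 4 libraries (log2 ratio -1.12 ± 0.28, SD, n = 4), or 0.267 times with the length of the longest transcript. Nol3, which encodes ARC, an inhibitor of apoptosis typical of heart and skeletal muscle, had 40.0, 32.7, 43.6 and 39.7 CPM and was lowest in library 2. It exceeded Xiap 5.91-fold and Cflar 2.85-fold per kilobase, the second only 1.48-fold with the longest transcript. It lies on chromosome 8 at 105276140 to 105281939, where another gene, 4931428F04Rik, covers 48.2% of its exons. That gene had 32 to 53 counts, against 455 to 610 for Nol3, and without strand the level of Nol3 is uncertain. Counted without length, Nol3 was lower than Cflar (log2 ratio -0.48).

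Xiap, which blocks caspases directly and lies on the X chromosome, had 18.7, 15.8, 24.04 and 20.4 CPM, with library 2 lowest and library 3 highest. Libraries 2 and 3, where Xist was high, thus lay at the 2 ends. Birc2 and Birc3 encode ubiquitin ligases of TNF signalling and lie 11.6 kilobases apart on chromosome 9. Neither was called by edgeR. Birc2 had 7.84, 7.11, 7.22 and 8.72 CPM, and Birc3 had 9.23, 7.76, 9.22 and 10.5 CPM. Their ratio per kilobase, 0.923, was within the spread between libraries, with Birc2 higher in 1 of 4 (two-sided exact sign-flip permutation p = 0.25).

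Death receptor genes differed widely among themselves. Tnfrsf1a, the main TNF receptor of tissue cells, had 53.5, 55.7, 45.7 and 54.8 CPM in libraries 1 to 4. It exceeded Fas 5.73-fold per kilobase (log2 ratio 2.52 ± 0.54, SD, n = 4), by most in library 2, where Fas was lowest, and the mean log2 ratio was 2.10 without libraries 2 and 3. Fadd, the adaptor of caspase-8, had 17.2, 17.4, 16.5 and 17.97 CPM. Fadd had the smallest variance ratio of the members tested, 0.0655.

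The necroptosis genes formed the smallest sum of any role with more than 1 gene, at 15.8, 15.9, 14.2 and 17.6 CPM. Ripk1, the kinase that the TNF receptor complex recruits, had 10.1, 9.84, 9.31 and 11.3 CPM. Ripk3, which phosphorylates MLKL, had 50, 47, 24 and 50 counts, or 3.47, 3.38, 2.28 and 3.26 CPM. Mlkl, which permeabilises the cell membrane, had 32, 38, 27 and 46 counts, or 2.63 ± 0.324 CPM. Per kilobase Ripk1 had 0.901 times the level of Ripk3, within the spread between libraries (log2 ratio -0.15 ± 0.23, two-sided exact sign-flip permutation p = 0.375, n = 4).

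None of the genes for proteins held in mitochondria until death, or for p53 and its ligase, was called by edgeR. Of all tested genes 0.445% were called, so a set this small would seldom hold a call. Aifm1, a flavoprotein that also serves respiratory chain assembly, lies on the X chromosome and had 58.8, 62.3, 65.0 and 62.9 CPM. Diablo, whose protein displaces inhibitors from caspases, had 45.0, 52.1, 43.7 and 52.4 CPM, and the nuclease gene Endog had 12.2, 10.6, 9.12 and 11.7 CPM. Diablo shares 40.9% and Endog 35.7% of exon bases with other genes, and their levels are uncertain. Trp53, which encodes p53, had 29.1, 32.4, 31.4 and 30.3 CPM. Mdm2, the ligase that degrades p53 and is itself a p53 target, had 49.0, 50.4, 42.4 and 51.6 CPM. Mdm2 exceeded Trp53 1.25-fold per kilobase, higher in 4 of 4 libraries (log2 ratio 0.32 ± 0.15, SD, n = 4).

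**Figure D4:**
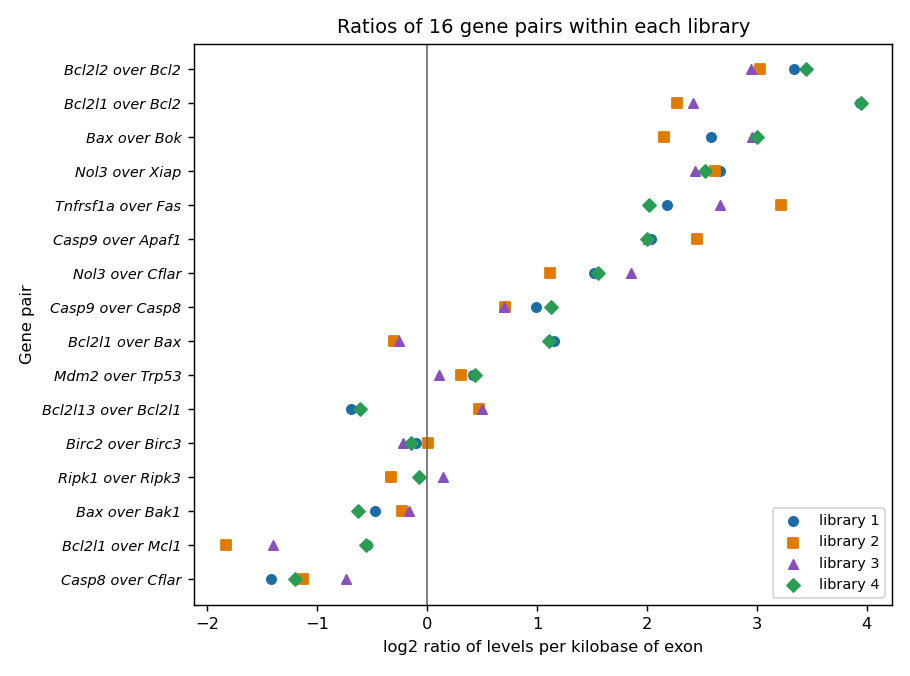
log2 ratio of the first to the second gene per kilobase of exon for 16 pairs, with 1 point per library. Points right of 0 mean that the first gene was higher. The ratios of Bcl2l1 to Bax and of Bcl2l13 to Bcl2l1 fall on both sides of 0, with libraries 1 and 4 together and libraries 2 and 3 together.

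Of 16 pairs of members compared per kilobase, the first gene was higher in all 4 libraries in 9, the second in 3, and 4 were mixed. With 4 libraries the two-sided exact sign-flip permutation test cannot go below a p of 0.13, and the 12 pairs that reached it had 0.167 after Benjamini-Hochberg adjustment over the 16 pairs, so no pair could pass 0.05. Bcl2l1 exceeded Bcl2 8.84-fold in the mean, but by log2 3.94 in both libraries 1 and 4 and by 2.27 and 2.42 in libraries 2 and 3. It stayed below Mcl1 in 4 of 4 libraries, at 0.472 times its level in the mean, with log2 ratios of -0.54, -1.83, -1.40 and -0.55 in libraries 1 to 4. With the longest transcript that mean was 0.844 times, and the order of the pair in libraries 1 and 4 depends on the length used. Bcl2l13 and Bcl2l1 changed places, with log2 ratios of -0.69 and -0.61 in libraries 1 and 4 and 0.48 and 0.50 in libraries 2 and 3. Casp9 exceeded Casp8 1.84-fold.

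The members' counts are set here beside those of all genes. Of the 36 tested, 1, or 2.78%, was called more variable by edgeR's quasi-likelihood fit at an adjusted p under 0.05, against 0.445% of all 12358 tested genes. At an unadjusted p under 0.05 there were 3, Bcl2l1, Fas and Bik, or 8.33%, against 6.00% of all. A highest library at least 2 times the lowest was seen in 4 members, Bcl2l1, Fas, Bok and Bik, or 11.1%, against 5.80%. Libraries 1 and 4 were the highest 2 for 10 members, 27.8%, against 23.7%. The lowest library was library 3 for 14 members, 38.9%, against 33.4% of all, and library 2 for 11, 30.6%, against 30.7%. It was library 1 for 7 members, 19.4%, against 19.8%, and library 4 for 4, 11.1%, against 16.1%. The median coefficient of variation was 11.2% over the members tested and 9.59% over all tested genes, and the median log2 variance ratio was -0.03 over the members and -0.23 over all. With libraries 2 and 3 left out, edgeR called 0 of 37 members and 6 of 12345 genes in all. Of those 6, 0 were among the 55 called with 4 libraries. At an unadjusted p under 0.05 there were then 2 of the 37 members and 629 of all 12345 genes.

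**Figure D5:**
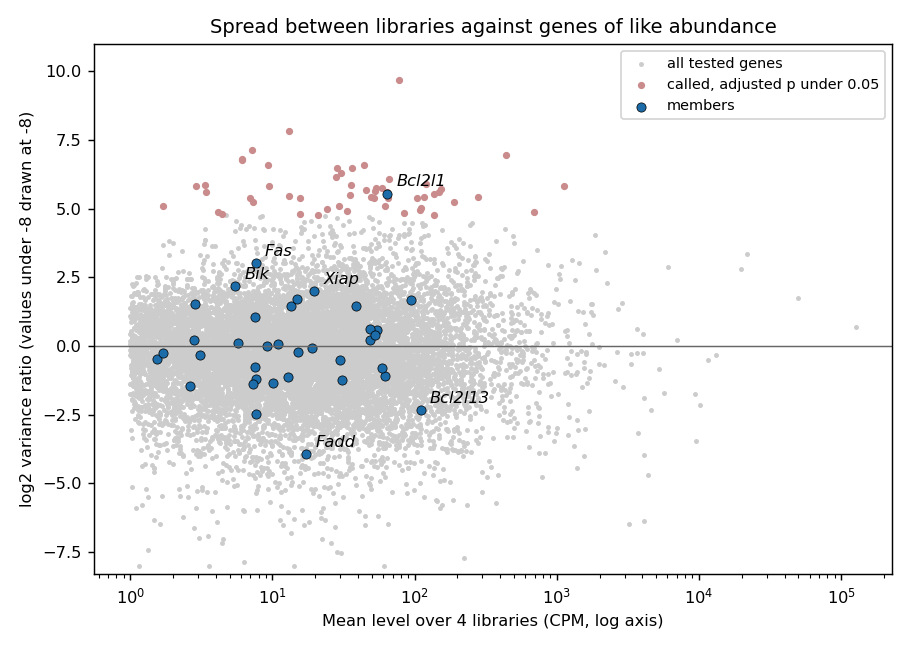
log2 variance ratio of each of 12358 tested genes against its mean CPM (log axis), in grey, with the called genes in pink and the 36 tested members in blue. Bcl2l1 is the member among the called genes, Fas and Bik follow below them, and the other members scatter around 0 with the bulk of genes.

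A further 72 genes of these pathways were examined as a list, among them BCL2 relatives, adaptors and p53 targets. Of these 58 passed 1 CPM, and edgeR called 0, against 0.445% of all tested genes. At an unadjusted p under 0.05 there were 6 of the 58, against 741 of all 12358 tested genes, or 6.00%. limma and DESeq2 also called 0, and edgeR with no filter on low counts called 1, Sesn1, a p53 target with 137.6, 90.7, 120.3 and 135.7 CPM in libraries 1 to 4. The highest per kilobase were Vdac1, the main channel of the outer mitochondrial membrane, at 273.5 ± 16.4 CPM per kilobase, the chaperone cofactor Bag3 at 157.5 ± 8.39, and cytochrome c, Cycs, at 107 ± 5.21 (SD, n = 4 each). The p53 target Ccng1 had 97.5 ± 2.19, Bag1 92.1 ± 2.66 and the p53 target Perp 56.1 ± 2.85 CPM per kilobase. The levels of Vdac1 and Cycs are uncertain, because both have processed pseudogenes to which reads can also align. Casp14, Bcl2l14 and Trp73 had 0 counts in all 4 libraries, each a limit of 3 counts per library.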

How the data were processed

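Polyadenylated RNA from mouse heart was measured in 4 libraries of 1 group, made without keeping strand per the labels' protocols. The files as deposited give raw counts for 23420 gene symbols. The submitters' processing notes list HTSeq, TopHat, TopHat2 2.0.10, Bowtie2, edgeR and DESeq with the mm10 build, without roles. Which annotation and counting mode were used is not given in these sources. The 5 rows that name no gene were left out. They held 8.96 to 9.30% of listed reads, mostly reads that align to several places, so genes with close copies are uncertain.

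CPM was computed over gene counts. GENCODE M21 (GRCm38, the same assembly as mm10) gave lengths, coordinates and shared exon bases, with 98.5% of the 23420 symbols matched. Spread between libraries was tested with edgeR 4.0.16 in R 4.3.3: TMM factors, an intercept only, a trended dispersion and the quasi-likelihood fit, its prior estimated robustly. The ratio of quasi-dispersion to trend was referred to F with 3 and 7.42 degrees of freedom. Benjamini-Hochberg adjustment ran over the 12358 genes that averaged 1 CPM or more, with calls under 0.05. Pair ratios used counts plus 0.5. limma 3.58.1 and DESeq2 1.42.0 were alternatives.

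The members and lists were chosen with earlier results of these data known. Full values are given for members of at least 10 CPM, under 1 CPM, called, widest in ratio or in a pair, and for the 6 highest pathway genes. Some genes that the rule would name are not reported here. The promoter windows shown and the motifs were picked after the spread of Bcl2l1 had been seen. Intervals and floors describe counting error alone, because the labels mention no molecular identifiers that would mark PCR copies.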

Additional observations from a re-analysis of the deposited data

Results flagged for a closer look

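Over 65 values with 4 libraries each (the CPM of each member, the sums by role and the pair ratios), 1 had a library far from the other 3. The log2 ratio of Casp9 to Apaf1 per kilobase was 2.46 in library 2 and at most 2.04 in the other 3 libraries, and its mean was 2.02 without libraries 2 and 3. That gap was 0.919 of the whole range, past Dixon's 95% critical value for 4 samples. Chance flags about 1 in 20 such values.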

How the results depend on the processing

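The call of Bcl2l1, the single member called by edgeR, held with DESeq2 size factors, with limma, as a DESeq2 dispersion outlier, at both other filters on low counts and without each library in turn (adjusted p 0.00728 to 0.0352 in the last). It was lost with a prior that was not robust (adjusted p of Bcl2l1 0.106, edgeR). With that prior edgeR called 0 of 36 members, with 2 at an unadjusted p under 0.05, against 10 and 608 of all 12358 genes. limma and DESeq2 each called 1 member, against 50 and 129 of all 12358 genes. The call was also lost without libraries 2 and 3 together (log2 variance ratio -0.95). Then edgeR called 0 of 37 members, with 2 at an unadjusted p under 0.05, against 6 and 629 of all 12345 genes. The count over all genes, 55, was 258 with no filter, 10 with the prior that was not robust, 129 as DESeq2 dispersion outliers, 6 without libraries 2 and 3, and 39 to 69 without single libraries. The causes were not tested. The ribosomal RNA precursor Rn45s alone took 12.8, 14.1, 11.9 and 12.3% of gene counts in libraries 1 to 4. All CPM values given here are lower for it. With Rn45s left out of the total, the summed level of the members was 1041 CPM.

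Pairs in which the first gene was higher in every library numbered 9 to 11 under all alternatives run. Mean log2 ratios changed sign for Bax to Bak1 with the longest transcript (0.13), without division by length for Nol3 to Cflar (-0.48), Ripk1 to Ripk3 (1.71) and Bcl2l13 to Bcl2l1 (0.90), and for Bcl2l13 to Bcl2l1 without library 1 (0.12) and without library 4 (0.09), with a range of -0.28 to 0.12 over the 4 omissions. No paired analysis was possible because the libraries form 1 group.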
